A study of Mus musculus with 2 samples.

Results

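The Mir379-Mir410 cluster is a run of microRNA (miRNA) genes at the distal end of the imprinted Dlk1-Dio3 region on mouse chromosome 12. The members are the plus-strand miRNA genes of the GENCODE M21 annotation within the window that holds the cluster, 39 in all, and 38 of them could be counted. The tables hold 1973 miRNA genes, 1977 with the 4 members that were added without a row. Of the 38, 34 were among the 1973 and were read from the counts on their own strand. The other 4, Mir376a, Mir409, Mir380 and Mir299a, had no row. They were read from the opposite-strand counts of the minus-strand genes annotated over them (Gm25252, Gm24321, Gm25750 and Mir299b). Mir376b had neither a row nor a minus-strand gene over it, and no value is given for it.

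Short RNAs, under 30 nucleotides, were selected from total RNA of 1 hindbrain per library and sequenced, in newborn B6NCrl mice (postnatal, age 0 day). The 2 libraries form 1 group, P0 hindbrain, with no genotype or treatment named in the labels. Biological replicate 1 was the hindbrain of pup 1 and replicate 2 that of pup 3, and both carry 1 donor identifier and no recorded sex. There was no second condition, so what could be examined was how much of each member the newborn hindbrain held, how levels were spread within the cluster and how far the pups differed.

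miRNAs are short RNAs cut from hairpin precursors. Loaded on an Argonaute protein, they repress messenger RNAs that pair with their seed, bases 2 to 8 from the 5′ end. The Dlk1-Dio3 region expresses its noncoding RNAs from the maternal chromosome, and the cluster is thought to be cut from 1 long transcript that includes Mirg. It is found in placental mammals, is expressed mainly in brain after birth, and in neurons its transcription is raised by activity through the factor Mef2. Mice that lack the cluster have been described with poor metabolic adaptation at birth and with altered anxiety and social behaviour. The counts carry no information on the parental allele, so imprinting itself was not measured.

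Sequences are given first, because the seeds show which members could act on the same targets. They come from the RefSeq miRNA table on GRCm38.p6, the assembly of mm10, which matched 38 of the 39 annotated members (all but Gm27379) with 71 mature arms. The arms held 65 distinct seeds, so most members do not share one among the arms listed. For 5 members, Mir487b among them, only 1 arm was listed, and a seed of an unlisted arm would be missed. There were 6 seeds that each occurred in 2 members, and none of the 6 occurred in a miRNA gene of the table outside the cluster. Each sequence is written 5′ to 3′ with the seed in capitals, and pairs that share a seed stand next to each other.

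miR-379-5p: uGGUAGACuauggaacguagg
miR-1193-5p: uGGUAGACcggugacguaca
miR-379-3p: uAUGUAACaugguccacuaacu
miR-411-3p: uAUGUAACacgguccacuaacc
miR-758-5p: uGGUUGACcagagagcacacg
miR-1197-5p: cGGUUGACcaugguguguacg
miR-496a-5p: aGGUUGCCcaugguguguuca
miR-453: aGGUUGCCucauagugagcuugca
miR-410-5p: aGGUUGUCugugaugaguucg
miR-494-5p: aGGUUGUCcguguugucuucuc
miR-376c-5p: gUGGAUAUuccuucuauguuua
miR-376b-5p: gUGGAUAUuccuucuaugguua

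In the arms listed, the 3 most abundant members by mean level had seeds of their own within the cluster. They are shown because they carry most of its reads. Mir411, the next by mean level, shares a seed with Mir379, as given above. The counts are per gene, so the arm that was sequenced is not known. For Mir487b only the 5p arm was listed.

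miR-487b-5p: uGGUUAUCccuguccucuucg
miR-382-5p: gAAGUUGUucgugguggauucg
miR-382-3p: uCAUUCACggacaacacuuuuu
miR-376a-5p: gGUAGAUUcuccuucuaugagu
miR-376a-3p: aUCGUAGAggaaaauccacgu

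Short stretches recurred between the arms of members, in part within the seeds above. The 6 letters GUUGCC occurred in a mature arm of 7 of 38 members (18.4%), against 4 of 1020 other miRNA genes (0.392%). Those 7 were Mir154, Mir377, Mir381, Mir453, Mir495, Mir496a and Mir543. The letters GGUUGA occurred in 6 members (15.8%), against 1 other gene (0.0980%). AGGUUG was as frequent in the members, at 6 of 38, but occurred in 19 other genes (1.86%), and in some arms it overlaps GUUGCC. The stretches were chosen after counting all stretches of 6 letters in the members' arms, on the strand of the miRNA alone, and no test was made of them. Of the 71 arms, 11 (15.5%) had a seed that is also listed for a miRNA gene elsewhere, such as miR-410-3p with Mir344d-1 and miR-329-3p with Mir362. The median GC content of the arms was 47.4%, against 52.4% for 1603 other distinct mature sequences. A first base of U, which Argonaute proteins favour, was found in 42.3% of the arms and in 41.0% of the others. For a first base of A the shares were 38.0% and 25.0%.

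The cluster made up 11.7% ± 1.13 of own-strand miRNA counts (SD, n = 2 pups). In pup 1 it was 10.9%, with a Clopper-Pearson 95% interval from 10.84 to 10.90. In pup 3 it was 12.5%, with an interval from 12.44 to 12.49. For this share, the reads of the 4 genes without a row were added to the total as well. Own-strand counts summed to 4906127 in pup 1 and 6238680 in pup 3, and levels are in CPM, counts per 1000000 of these. Intervals cover counting error only, and take each read as a separate molecule. The limit that a count of 0 allows, taken as 3 counts, was 0.611 CPM in the pup 1 library and 0.481 CPM in that of pup 3. A mature miRNA gives 1 read whatever the length of its precursor, so no length scaling was applied. Ligation and amplification capture some miRNAs better than others, and reads that match several genomic places were given to no gene, so a level of 1 gene against another also reflects these steps. In bulk tissue, fewer cells of a type and less RNA per cell cannot be told apart.

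The tissue label was checked against marker miRNAs. The position markers of hindbrain and spinal cord (Mir10a, Mir10b and Mir196b) summed to 52123 CPM (pup 1) and 34669.5 CPM (pup 3). Mir10a had 32189 and 24602 CPM in pups 1 and 3, Mir10b 19914.5 and 10051 CPM, and Mir196b only 19.4 and 15.9 CPM. The neural list had 9 of 10 genes with a row and 6 detected, summing to 18440.0 and 17373 CPM. Most of that was Mir137, at 11363 and 11340 CPM, and Mir9-3 had 538 and 386 CPM. Mir124a-1 had 14.9 and 4.01 CPM, and Mir124a-2, Mir124a-3 and Mir9-2 were not above 3.47 CPM in either pup. Mir9 and Mir124a are listed in several gene copies, and reads that match several genomic places were given to no gene. The low values of these copies therefore need not reflect how much of the miRNA the tissue held. Choroid plexus and ciliated cell markers summed to 19022 and 17194 CPM. Vessel markers summed to 55322 and 65476 CPM, erythroid markers to 498 and 308 CPM, where Mir451a made up most, and leukocyte and microglia markers to 842 and 597 CPM. Of the muscle list, Mir1a-1, Mir133a-1 and Mir133a-2 stood at 0 in both pups and Mir206 at 172 and 157 CPM. Mir1a and Mir133a are also listed in several gene copies, so these values of 0 need not mean that the tissue held none. The liver marker Mir122 had 44.6 and 45.2 CPM.

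Strand was clear-cut at the cluster. The 34 rows read on their own strand had 0 opposite-strand reads in either pup. At the 4 rows read on the opposite strand, the minus-strand gene itself had 0 reads for Gm25252, Gm24321 and Gm25750, and 2 and 3 reads for Mir299b. The minus-strand models differ in extent from the genes they stand for: the one over Mir376a is longer than it and the one over Mir299a is shorter. Of the 34 rows, 22 carried the same gene version as in M21 and 12 another, so the counted extent may differ from the coordinates given here for these.

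Nearly all counted members were present. At 2 CPM or more in both pups, the level taken as detection, 35 of 38 members (92.1%) were detected, against 407 of 1973 genes in the tables (20.6%) and 403 of 1051 genes with a Mir symbol (38.3%). The members' median level was 487 CPM over all 38 and 617 CPM over the 35 detected, where the median over all detected genes of the tables was 178 CPM. There were 15 members at a mean of 1000 CPM or more, 14 between 100 and 1000 CPM and 9 below 100 CPM. Mir654 and Mir453 had 0 counts in both pups, and Gm27379, a predicted gene, had 2 counts in pup 1 and 1 in pup 3.

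Expression was concentrated in a few members. Mir487b (chr12:109727333-109727414) alone gave 39.4% of the cluster's reads in pup 1 and 42.6% in pup 3. The 5 most abundant members gave 70.7% ± 3.32 and the 10 most abundant 88.2% ± 0.866 of the cluster's reads (SD, n = 2 pups). Mir487b stood at 43415 CPM (pup 1) and 54085 CPM (pup 3), 48749.7 ± 7545 CPM. No other member came near it in either pup. Its precursor shares a 20-base stretch with that of Mir376b, so reads from the shared stretch could have been left out.

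The next levels belonged to Mir382, Mir376a, Mir411 and Mir369. Mir382 (chr12:109733771-109733846), over an exon of Mirg, had 9780 CPM (pup 1) and 9851 CPM (pup 3). Mir376a (chr12:109723781-109723848), whose precursor is known to be edited by adenosine deaminases in brain, had 7254 CPM (pup 1) and 12070.5 CPM (pup 3). Mir411 had 7425 CPM (pup 1) and 8696 CPM (pup 3). Mir369, whose 3p arm is known from work on AU-rich elements, had 7534 CPM (pup 1) and 8127 CPM (pup 3). The 2 pups' values of Mir376a enclose those of Mir382, Mir411 and Mir369, so its place among them is not settled by these libraries.

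Below these came Mir381, Mir409, Mir379 and Mir541. Mir381, needed with Mir134 and Mir329 for dendrite growth driven by activity, had 5155 CPM (pup 1) and 6996 CPM (pup 3). Mir409 had 5226 CPM (pup 1) and 4043 CPM (pup 3). Mir379, the first gene of the cluster, had 3715 CPM (pup 1) and 4212 CPM (pup 3). The order of this set changed between the pups, since Mir409 and Mir541 were lower in pup 3 and the others higher. Mir541 (chr12:109742409-109742498), in an intron of Mirg, had 4735 CPM (pup 1) and 2118 CPM (pup 3).

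The last 6 members above 1000 CPM were Mir154, Mir380, Mir300, Mir323, Mir134 and Mir496a. Mir154 had 2329 CPM (pup 1) and 2592 CPM (pup 3). Mir380 had 1892 CPM (pup 1) and 2908 CPM (pup 3). Mir300 had 1621 CPM (pup 1) and 1944 CPM (pup 3). Mir380 and Mir154 thus exchanged places between the pups, and Mir300 passed Mir323 in pup 3. Mir323 had 1806 CPM (pup 1) and 1738 CPM (pup 3). Mir134, a brake on dendritic spine growth through the kinase Limk1, had 1361 CPM (pup 1) and 1432 CPM (pup 3). Mir496a had 1056 CPM (pup 1) and 998 CPM (pup 3).

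Of the genes of the cluster linked to neuronal activity and dendrites, 9 of 10 could be counted and all 9 were detected, at a median of 702 CPM. Besides Mir381, Mir376a, Mir379 and Mir134 they were Mir376c at 617 and 788 CPM in pups 1 and 3, Mir329 at 688 and 546 CPM, and Mir485, which acts on the synaptic vesicle protein Sv2a, at 617 and 505 CPM. Mir410 had 384 CPM (pup 1) and 362 CPM (pup 3). Mir495 had 247 CPM (pup 1) and 240.1 CPM (pup 3). The count that could not be made is that of Mir376b. Together the 9 took 1.99% of counts in pup 1 and 2.68% in pup 3, and Mir376a and Mir381 account for most of that difference in reads.

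Members that share a seed lay from 2.03-fold apart, for Mir379 and Mir411, to a pair in which one had no count. Mir379, at 3963 ± 352 CPM, shares 1 seed with Mir1193, at 374 CPM (pup 1) and 404 CPM (pup 3), and another with Mir411, at 8061 ± 899 CPM (SD, n = 2 pups). Mir496a had 1027 ± 40.7 CPM, while Mir453, with the same seed, had no count. Mir758 had 136 CPM (pup 1) and 133 CPM (pup 3), and Mir1197 had 10.4 and 9.62 CPM. Within each of these pairs the 2 pups gave the same order, with no overlap. Mir410, at 373 ± 15.2 CPM, likewise lay above Mir494, at 108 ± 14.9 CPM, from 119 CPM (pup 1) and 97.8 CPM (pup 3). Mir411 and Mir758 also share a 20-base stretch of their precursors, as do Mir376c and Mir376b, so reads from such stretches could have been left out. Mir299a, read from the opposite strand of Mir299b, had 622 CPM (pup 1) and 640.4 CPM (pup 3), and the detected members not named up to here lay between it and Mir544 at 32.0 ± 6.27 CPM.

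Level did not follow position. The counted members spanned 38.9 kb (chr12:109709060-109747960), with a median gap of 590.0 bp and 17 of 37 gaps under 500 bp. Adjacent detected members differed by a median of 5.34-fold over 34 pairs, close to the 6.85-fold between any 2 detected members (595 pairs, which share members). The largest step was 557-fold, from Mir487b to Mir539 at 87.5 ± 15.4 CPM (SD, n = 2 pups). Mir544 and Mir382 differed by 307-fold, and Mir380 and Mir1197 by 240-fold. At the distal end, Mir409, Mir412, Mir369 and Mir410 lie within a short stretch, and Mir412 stood at 165 CPM (pup 1) and 139 CPM (pup 3) between the higher Mir409 and Mir369. Spearman's rho of level with distance from Mir379 was 0.019 over the 35 detected members, with precursor GC content -0.24 and with predicted folding energy of the precursor 0.19. These are descriptions across genes of the same libraries.

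**Figure D1:**
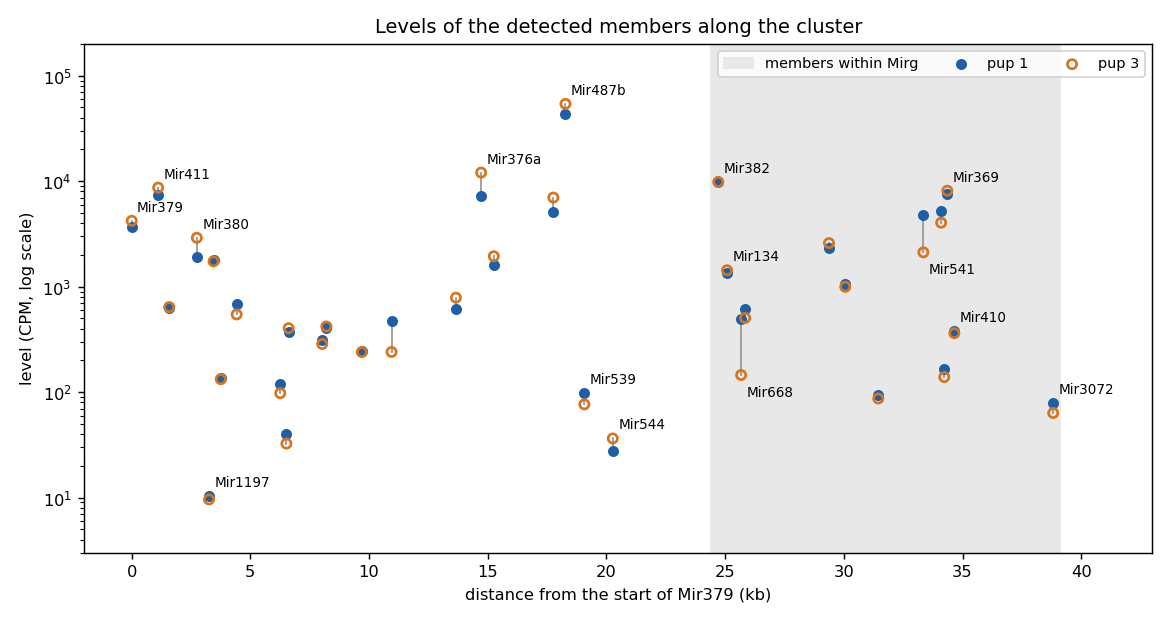
Level of each detected member (CPM, log scale) against distance from the start of Mir379 in kb, with pup 1 as filled and pup 3 as open circles joined by a line. Mir487b stands highest in both pups, with Mir539 and Mir544 below 100 CPM a short way downstream, and the shaded stretch marks the members within Mirg.

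Both sides of the Mirg boundary held high and low members. Of the 38, 14 lay within Mirg, 9 of them over an exon and 5 in an intron, and 24 lay upstream of it with no annotated host on their strand. The median was 794 CPM for the 14 and 401 CPM for the 24, with 13 and 22 detected. Members over an exon had a median of 373 CPM and those in an intron 2460.2 CPM, in groups of 9 and 5 genes.

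The cluster was compared with the other imprinted miRNA genes. Upstream in the same region, 19 of 20 plus-strand miRNA genes were counted and 14 were detected (73.7%), with a median of 1248 CPM over those detected. They took 3.30% ± 0.182 of counts (SD, n = 2 pups), so the cluster took the larger share in both pups. The share of the upstream genes was 3.43% in pup 1 and 3.17% in pup 3. Of imprinted miRNA genes on other chromosomes, Mir335, Mir298, Mir296, Mir483 and Mir675 were all detected and took 3.41% ± 0.196, most of it from Mir335 of the Mest gene. The difference in detection was not tested, as genes are not replicates.

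The pups were close for most members. After scaling with TMM, the absolute log2 difference between pups had a median of 0.21 over the 35 detected members and 0.28 over the 376 detected genes outside the cluster. Of the 35, 30 differed by less than 1.5-fold (85.7%), against 306 of 376 other genes (81.4%). Log2 differences were computed on TMM-scaled CPM with a pseudocount of 1 CPM. TMM took the pup 3 library as 1.16 times the size of that of pup 1, against 1.27 times by totals, so a log2 difference lies above the log2 ratio of the CPM printed beside it, which are on totals. On TMM scaling the smallest difference was in Mir666, at -0.0011, and on library totals it was in Mir382, at 0.01.

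**Figure D2:**
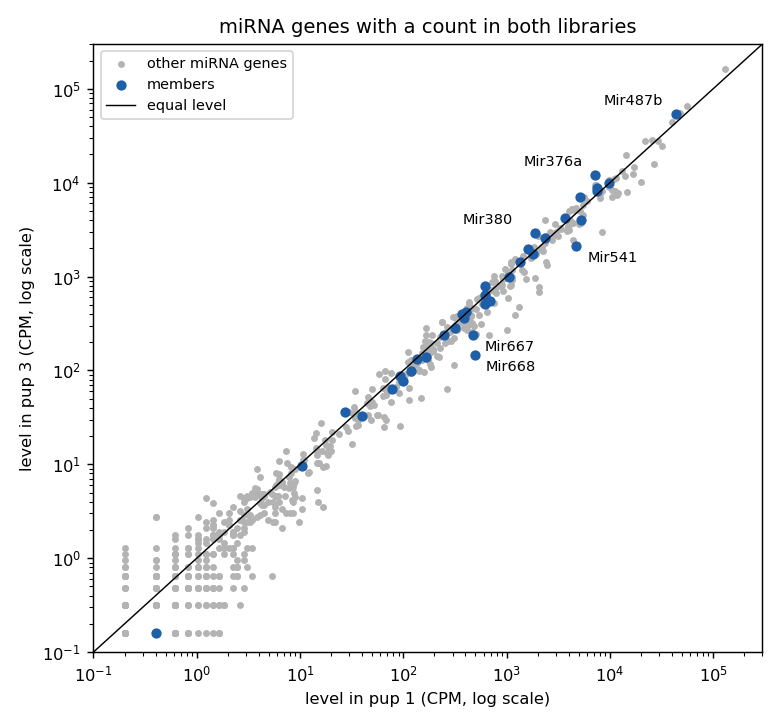
Level in pup 1 against level in pup 3 (CPM on library totals, log scales) for genes with a count in both libraries, with members in blue and other genes in grey. Mir668, Mir541 and Mir667 lie furthest below the line of equal level among the detected members, and Mir376a and Mir380 furthest above it.

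Differences between the libraries were tested with an exact binomial test per gene on 512 genes, two-sided, with Benjamini-Hochberg adjustment, and a gene was called where the adjusted p was under 0.05 and the levels differed 2-fold. Each p rests on counting error alone and not on any spread among animals, so a call says that 2 libraries differ. Of 35 members tested, 2 were called lower in pup 3 (5.71%), against 29 of all 512 genes (5.66%). None was called higher, against 5 of all genes (0.977%). With a filter of 100 or more counts in sum, no gene of the tables was called higher either, and 18 were called lower. The members' share of calls thus lay at that of all genes.

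The called members were Mir668 and Mir541, both within Mirg. Mir668 (chr12:109734732-109734797) had 492 CPM (pup 1) and 145 CPM (pup 3), from 2414 and 907 counts. Its log2 difference was -1.61 with a counting SE of 0.06 (exact binomial test, adjusted p = 3.22e-206). Of 411 detected genes, 5 (1.22%), Mir668 included, differed by as much in either direction. Its neighbours Mir134 and Mir485, 522 and 104 bp away, had log2 differences of 0.21 and -0.15. Mir541 had a log2 difference of -1.02 with a counting SE of 0.02, from 23230 and 13214 counts, and 25 detected genes (6.08%) differed by as much. With DESeq2 size factors Mir541 had -0.93 and was no longer called.

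Further members came close to 2-fold. Mir667 had 477 CPM (pup 1) and 241 CPM (pup 3), and its TMM-scaled log2 difference was -0.85 with a counting SE of 0.05. Mir376a had a log2 difference of 0.87 with a counting SE of 0.01. Mir380 had 0.76 with a counting SE of 0.02. The last 2 were read from the opposite strand of another gene's row. Mir381 followed with 0.58 and Mir544, at 27.5 and 36.4 CPM, with 0.52.

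Without a fold limit, more members were higher in pup 3 than lower. At an adjusted p under 0.05 (exact binomial test), 17 of 35 members were higher in pup 3 (48.6%), against 124 of 512 genes (24.2%), and 7 were lower (20%), against 122 genes (23.8%). With counting error alone, a gene with more reads passes at a smaller difference. Detected members had a median of 617 CPM, against 157 CPM for detected genes outside the cluster. The part of level in these shares was not tested. The 17 included Mir487b at a log2 difference of 0.46, Mir300 at 0.40, Mir411 at 0.37, Mir379 at 0.32 and Mir154 at 0.29. The 7 lower ones were Mir668, Mir541, Mir667, Mir409, Mir539, Mir329 and Mir485. The split moved with the scaling, to 21 higher and 5 lower with DESeq2 size factors and to 13 and 13 on library totals, where all genes had 149 and 97, and 89 and 193. Relative to the median of all genes tested, the members' median lay higher in pup 3 by 0.11 with TMM, 0.12 with DESeq2 size factors and 0.11 on library totals. The scalings shifted the median of all genes from -0.02 with TMM to 0.07 and -0.15.

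**Figure D3:**
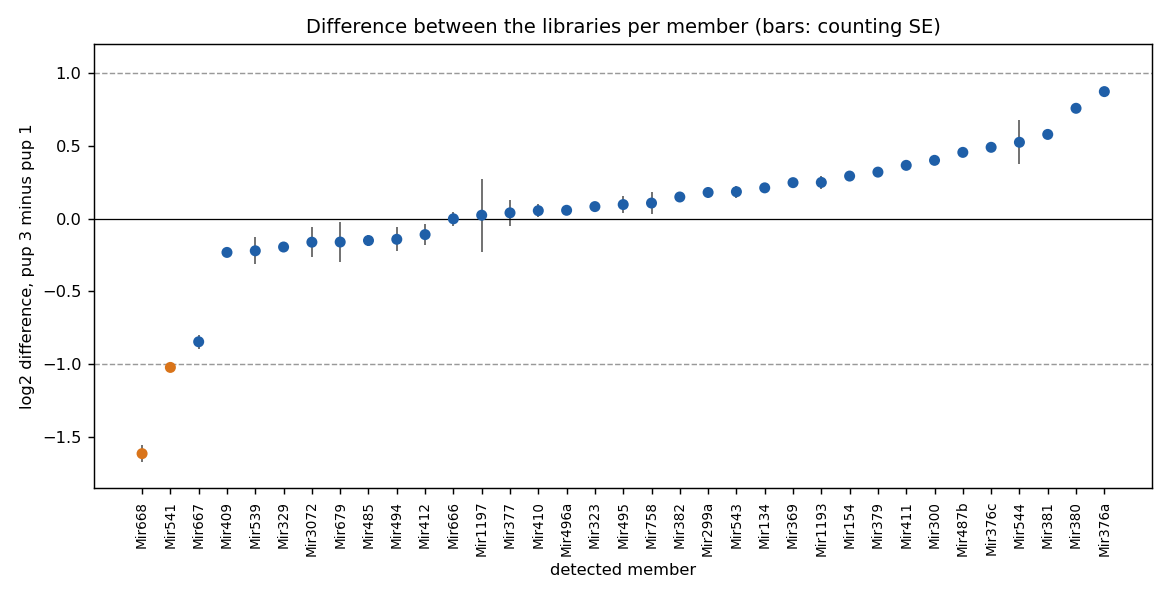
Log2 difference, pup 3 minus pup 1 on TMM scaling, for each detected member in order, with bars for the counting SE and dashed lines at 2-fold. Mir668 and Mir541, in orange, were called, and Mir376a and Mir380 are the highest.

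Base composition moved with the difference. On TMM scaling, of 25 detected members whose precursor had under 50% GC, 19 were higher in pup 3 (76.0%), and of 10 at 50% or more, 4 were (40.0%). Outside the cluster the same held for 94 of 167 genes (56.3%) and 84 of 209 genes (40.2%). The counts moved with the scaling, which was varied here after the data were seen. On library totals 14 of the 25 and 2 of the 10 members were higher. Of the genes outside the cluster, 72 of 167 (43.1%) and 60 of 209 (28.7%) were. With DESeq2 size factors 19 of the 25 and 5 of the 10 members were higher. Outside the cluster, 105 of 167 genes (62.9%) and 105 of 209 genes (50.2%) were. Median precursor GC content was 43.4% in the members and 51.4% in other detected genes. Mir668 had 56.1% GC and Mir667 62.0%, against 32.4% for Mir376a and 29.1% for Mir376c. Mir541, at 43.3%, and Mir539, at 33.8%, were among the members lower in pup 3 with GC content below 50%. Across the 35 members, Pearson's r of GC content with the log2 difference was -0.39 and Spearman's rho -0.37. Across 376 other genes they were -0.20 and -0.24. These are correlations across genes of the same 2 libraries, and the part of base composition in the differences was not tested.

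**Figure D4:**
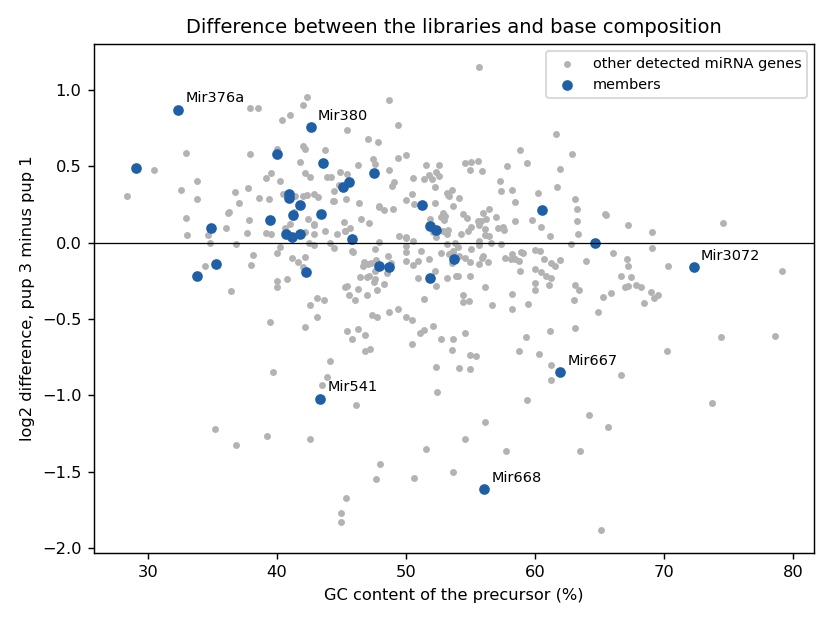
Log2 difference, pup 3 minus pup 1 on TMM scaling, against GC content of the precursor in %, with members in blue and other detected miRNA genes in grey. Mir376a, at 32.4% GC, is the highest member, Mir668 and Mir667, at over 50% GC, lie below 0, and so does Mir539 at 33.8%.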

How the data were processed

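The authors deposited 1 table of whole-number read counts per library, not normalized. Per the text files deposited beside them, the assembly was mm10 and the annotation M4, and which aligner and counter were used is not given in the sources used here. Rows that name no gene, 58.3% and 54.9% of reads in pups 1 and 3, among them 37.9% and 39.4% at several genomic places, stayed out of totals and tests. Gene IDs were matched to GENCODE M21 without their version, 1894 of 1973.

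Counts were scaled with TMM (edgeR 4.0.16), with DESeq2 1.42.0 size factors and library totals as alternatives. With 1 group, no quasi-likelihood test could be made. Exact binomial tests (scipy 1.17.1) took genes with at least 10 counts over both libraries, including the 4 added genes, with library sizes from the 1973 rows. The step was run on simulated counts that held counting error alone, as the test assumes. That run therefore says nothing of spread between animals or preparations. Folding energies came from RNAfold 2.7.2. The labels name the pups as separate replicates and the tables are not copies of 1 library, since their counts differed by more than sampling noise. Whether their spread is between animals or preparations cannot be told apart.

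Members, gene lists and marker lists were chosen with earlier results of these data known. By the rule for named genes, values are given for members of 1000 CPM or more, called members, the highest 2 of each shared seed, the 4 added genes and those at 0. Others are named after their values were seen.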

Additional observations from a re-analysis of the deposited data

How the results depend on the processing

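The share of the cluster, 11.7%, was 5.00% of every read in the table, 10.1% without the 4 genes read from the opposite strand, 6.87% without Mir487b and 6.00% without the 4 members that share 20 bases with another precursor. It ranged from 10.9% to 12.5% when 1 library was left out. With 2 libraries, that only gives the value of the remaining pup, here and for the median below. The median level of members was 204 CPM over every read, 381 CPM without the 4 added genes, 401 CPM without members that share 20 bases, and 462 to 554 CPM with 1 library left out. Detection ran from 34 to 35 members over all alternatives. Members called between the libraries were 1 with DESeq2 size factors and 5 at 1.5-fold, where Mir667, Mir376a and Mir380 joined. All genes called, 34 (29 lower and 5 higher in pup 3), were 18 with 100 or more counts, all lower in pup 3, and 76 at 1.5-fold, and split into 25 lower and 8 higher under the DESeq2 scaling, or 38 against 4 under plain totals. No named difference of Mir668, Mir541, Mir667, Mir376a or Mir380 changed direction. The settings could not have changed it, since each scaling moved all members by a similar amount, smaller than these differences. Smaller differences did change direction, such as Mir323 from 0.083 with TMM to -0.055 on library totals. Members higher in pup 3 went from 23 of 35 with TMM to 16 on library totals. No paired analysis was possible because there is 1 group.

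Depth limits members below about 100 CPM, where the counting SE reached 0.25 for Mir1197.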
